A study of Mus musculus with 12 samples.

Results

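Wnt ligands and the 2 proteins that prepare them for secretion were followed in mouse embryonic stem cells through the 7 genes Wls, Porcn, Wnt3, Wnt4, Wnt5a, Wnt6 and Wnt7b. They are 7 of the 18193 genes to which the platform annotation gives at least 1 probe set of their own. All probe sets annotated to one of these symbols and to no other gene were taken, 16 of 45101. Wls and Wnt5a had 4 probe sets each, Wnt4, Wnt6 and Wnt7b had 2 each, and Porcn and Wnt3 had 1 each.

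Total RNA was hybridised to Affymetrix arrays of a single design, which report 1 intensity per probe set. Arrays fell into 4 groups of 3, namely Tcf3-/- cells with Wnt3a, Tcf3+/+ cells with Wnt3a, Tcf3-/- cells in control medium and Tcf3+/+ cells in control medium. Tcf3 is the older name of Tcf7l1, a Tcf/Lef family protein that binds DNA and beta-catenin. Both genotypes were kept on gelatin with no feeders, in a serum medium containing Lif, and the Wnt3a groups had received 50 ng/ml recombinant Wnt3a for the last 24 h. Below, Tcf3-/- cells are called knockout and Tcf3+/+ cells wild type. The labels name no cell line, clone or passage and do not say how the allele was made, so the genotypes cannot be told apart from other differences between the cells that carry them. Replicates are numbered, but separate cultures are not mentioned, and p-values therefore reflect only how far arrays of a group differ, a spread that may be technical.

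Wnt proteins are secreted lipid-modified ligands. In the endoplasmic reticulum the acyltransferase Porcn attaches a fatty acid to the ligand, and the transmembrane carrier Wls then binds the acylated ligand and takes it to the cell surface, from where the retromer complex returns Wls to the Golgi. In mouse embryonic stem cells, Wnt signalling through beta-catenin favours self-renewal, and Tcf7l1 is known as a repressor whose effect on its targets is relieved by that signal.

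In assembly GRCm38.p6 the RefSeq annotation places Wls on chromosome 3 (159839650 to 159938666), Porcn on chromosome X (8193846 to 8206548), Wnt3 on chromosome 11 (103774175 to 103818021), Wnt4 on chromosome 4 (137277635 to 137299501), Wnt5a on chromosome 14 (28504543 to 28527448), Wnt6 on chromosome 1 (74754342 to 74785322) and Wnt7b on chromosome 15 (85535437 to 85581821). The build behind the probe design was not used here. Promoter sequences were found for 4 of the 7 genes, Wls, Wnt3, Wnt4 and Wnt6. Those of Wls and Wnt4 are shown because these were the 2 members with the largest falls in knockout cells in control medium. Each is the 250 bases before the annotated start of the gene, on the + strand, from RefSeq, at chr3:159839400-159839649 for Wls and chr4:137277385-137277634 for Wnt4. Capitals mark the letters CTTTG, the core that Tcf/Lef proteins bind, or CAAAG, the same letters on the other strand.
Wls: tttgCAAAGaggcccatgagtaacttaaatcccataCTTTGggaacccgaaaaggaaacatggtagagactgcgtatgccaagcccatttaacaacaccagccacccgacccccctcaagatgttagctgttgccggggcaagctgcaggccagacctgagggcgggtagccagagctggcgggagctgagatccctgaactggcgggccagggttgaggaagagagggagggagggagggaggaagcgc
Wnt4: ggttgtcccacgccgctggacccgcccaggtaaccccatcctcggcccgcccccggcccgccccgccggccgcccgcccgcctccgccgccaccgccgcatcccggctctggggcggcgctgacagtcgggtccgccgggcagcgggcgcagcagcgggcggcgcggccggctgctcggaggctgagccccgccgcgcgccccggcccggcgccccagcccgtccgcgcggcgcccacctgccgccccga
The Wls window held the core in 2 places, 246 to 242 and 214 to 210 bases before the start, that of Wnt3 held it once, 222 to 218 bases before the start, and those of Wnt4 and Wnt6 did not hold these letters. The Wnt6 window, at chr1:74771642-74771891, precedes a start that lies inside the gene span given above and not the first base of that span. Of 32851 promoter windows of the same length, 48.6% held the core on either strand. A longer form, which contains the core and has A or T at each of the next 2 positions, was in none of the 4 member windows and in 14.8% of all windows. The Wnt4 window was 85.2% G and C and that of Wls 58.0%, against a median of 52.4% over all windows. A match to these letters is a description of the window and not evidence of binding.

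Several facts about the arrays bear on the members. Bacterial transcripts spiked into the RNA before labelling differed between the media: dap lay between 11.07 and 11.33 on the 6 Wnt3a arrays and between 4.04 and 4.15 on the 6 control-medium arrays (log2 intensity), so medium and sample preparation cannot be told apart in any Wnt3a effect. The targeted gene was lower in knockout cells but well above background. The probe set of Tcf7l1 with the larger change averaged 8.52 in knockout and 10.32 in wild-type cells with Wnt3a, and 9.04 in knockout and 10.80 in wild-type cells in control medium. All 10 pluripotent stem cell markers, among them Pou5f1, Nanog and Sox2, lay above the floor defined below in every group. Their summed intensity was 105053.8 to 110782.3 in knockout and 90376.9 to 98466.5 in wild-type cells with Wnt3a, and 100725.2 to 103244.6 in knockout and 74691.2 to 81572.3 in wild-type cells in control medium, so it was lowest in wild-type cells in control medium. Utf1 and Fgf4 of this list did not have their lowest mean in that group. They averaged 12.60 and 10.63 in wild-type cells with Wnt3a, against 12.93 and 10.96 in wild-type cells in control medium. Markers of fibroblasts or feeder cells summed to 515.2 to 694.1 intensity units over 9 genes on all arrays, with Col3a1 and Lum under the floor throughout. The list of trophectoderm markers had a lower sum in knockout cells. Summed over 10 genes it was 3013.5 to 3285.6 in knockout and 18416 to 21914.7 in wild-type cells with Wnt3a, and 3357 to 3805.4 in knockout and 22599.9 to 36003.3 in wild-type cells in control medium. In wild-type groups 9 of these 10 markers and in knockout groups 8 of 10 lay above the floor, and Elf5 lay under the floor in all groups. Krt8 and Krt18, keratin genes of simple epithelia in general, made up 25.4 to 28.9% of the sum in knockout and 80.9 to 83.8% in wild-type cells with Wnt3a, and 23.8 to 35.8% in knockout and 85.3 to 88.9% in wild-type cells in control medium. The other 8 genes summed to 2177.8 to 2449.6 in knockout and 3485.8 to 3549.7 in wild-type cells with Wnt3a, and 2441.4 to 2557.3 in knockout and 3318.5 to 3998.3 in wild-type cells in control medium. Among these, Eomes had higher means in knockout cells, 8.43 in knockout and 7.75 in wild-type cells with Wnt3a, and 8.12 in knockout and 7.73 in wild-type cells in control medium. Over 5 neural marker genes the sum was 496 to 624.1 in knockout and 681.4 to 1004.4 in wild-type cells with Wnt3a, and 585.5 to 691.5 in knockout and 1016.9 to 1139 in wild-type cells in control medium. Nes was the brightest of them in all groups, and Zic1 and Olig2 lay under the floor. Nes averaged 8.36 in knockout and 9.07 in wild-type cells with Wnt3a, and 8.28 and 9.62 in control medium. Sox1 was higher in knockout cells in both media, 6.25 against 6.01 with Wnt3a and 5.99 against 5.83 in control medium. Pax6 was higher in knockout cells in control medium (7.78 against 7.43) but lower with Wnt3a (6.67 against 7.71). Extraembryonic endoderm markers summed to 11200.2 on knockout control array 2, against 5252.4 and 6197.6 on arrays 1 and 3, and to 7675.6 to 10326.3 on wild-type arrays. Of that list, Sparc, Lamb1 and Col4a1 had their lowest mean in knockout cells in control medium. The others had theirs in wild-type cells in control medium. Primitive streak and mesoderm markers summed to 603.7 to 718.9 on all arrays. In such bulk samples, fewer cells of a type and less RNA per cell cannot be told apart. Wild-type control array 1 stood apart, with the highest value of its group for all 9 member probe sets that passed the filter, against 32.8% of all probe sets that passed. Its sum of trophectoderm markers was also the highest, 36003.3 against 22599.9 and 28775.3 on arrays 2 and 3. Its sums of neural, extraembryonic endoderm and fibroblast or feeder markers were likewise the highest of its group. Its sum of pluripotent stem cell markers was the lowest, 74691.2 against 81572.3 and 78794.5, and that of primitive streak and mesoderm markers lay between the other 2 arrays. The part of these differences in the results below was not tested, and results that rest on that array are given with and without it.

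All levels are given as log2 of the deposited intensity, and a mean ± SD is over 3 arrays. Testing required a value over 5.56 (an intensity of 47.2), the 40th percentile of the whole table, on 3 or more arrays. The same level is used as a floor. A fold against a group whose mean was under it was computed against the floor and is written as at least N-fold. Of the 16 member probe sets, 9 passed, covering 5 genes. These were 3 of 4 for Wls, both for Wnt4 and Wnt7b, 1 of 2 for Wnt6 and the single one for Porcn. The 7 others, namely all 4 of Wnt5a, the single one of Wnt3 and 1 each of Wls and Wnt6, lay between 3.74 and 5.23 on every array. As a second measure of background, the 95th percentile of group means over 44 olfactory receptor probe sets, genes not normally used in these cells, was 6.31. By that measure 8 of the 16 had at least 1 group above background, and the Wls probe set 1423825_at did not.

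**Figure D1:**
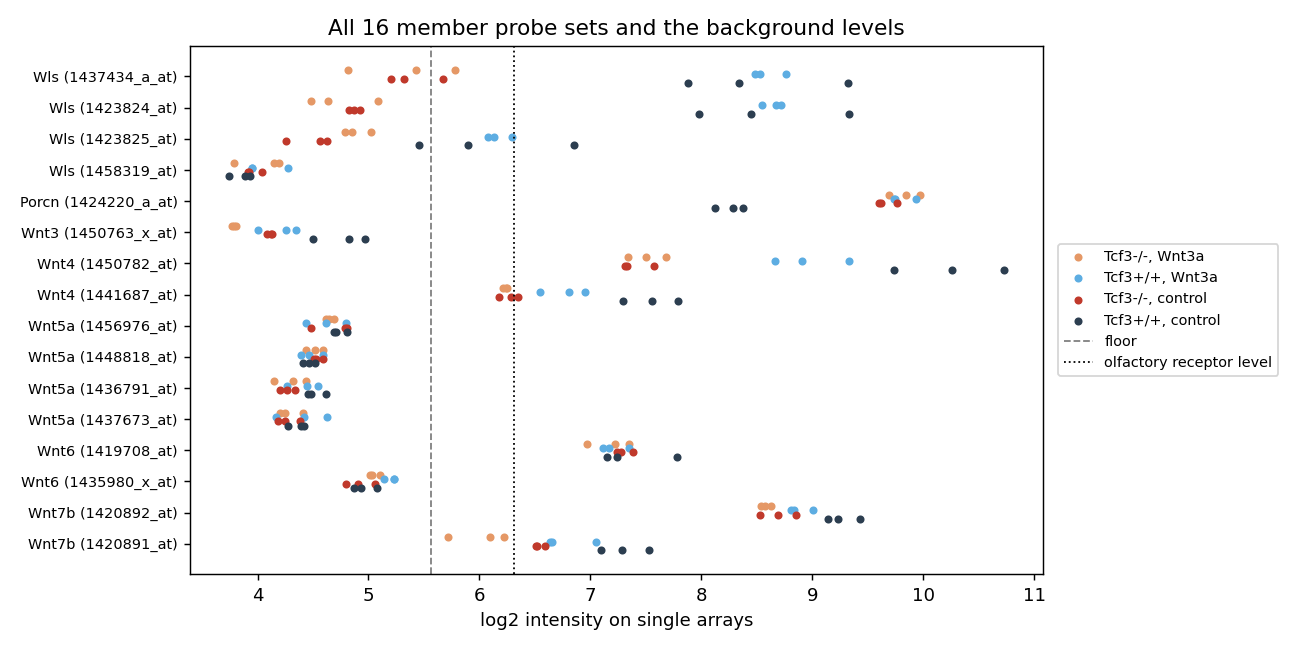
Log2 intensity of each of the 16 member probe sets on each of the 12 arrays, 1 point per array, coloured by group, with the floor (dashed line, 5.56) and the level of olfactory receptor probe sets (dotted line, 6.31). Porcn, Wnt4, Wnt7b and Wnt6 each have a probe set above both lines on every array, 2 of the Wls probe sets lie above them on wild-type arrays only, and Wnt5a and Wnt3 lie left of both lines throughout.

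Differences between groups were tested with limma over all 28483 probe sets that passed the filter, and every adjusted p is from that fit unless another setting is named. In knockout against wild-type cells in control medium, 8 of the 9 member probe sets were called at an adjusted p under 0.05, where 36.2% of all probe sets tested were called. Of these members 1 was higher and 7 were lower, where 18% of all were higher and 18.2% lower. The arrays of both groups did not overlap for 8 of 9 members, where 49.7% of all did not. The median difference was -1.28 over the 9 and 0.03 over all probe sets. In knockout against wild-type cells with Wnt3a, 7 of 9 were lower and none higher, where 24% of all were called and 13.2% were lower, with medians of -0.77 and 0.00. The groups did not overlap for 7 of 9, where 39% of all did not. Wnt3a against control medium in wild-type cells called 5 of 9, 1 higher and 4 lower, where 42.5% of all were called (20.8% higher and 21.7% lower), a share near that background. Arrays did not overlap for 5 of 9, where 53.7% of all did not. Wnt3a against control medium in knockout cells called 1 of 9, the Wnt7b probe set 1420891_at, which was lower, where 30.9% of all were called and 16% were lower. The interaction subtracts the Wnt3a effect of wild-type cells from that of knockout cells. It called 3 of 9, where 3.58% of all were called. Both probe sets of Wnt4 had a positive interaction, where 1.58% of all did, and Porcn a negative one, where 2% of all did. Probe sets of 1 gene share their transcript and are not independent of each other. The Wls probe sets 1423824_at and 1423825_at passed the filter through wild-type arrays alone, with 6 and 5 arrays above the level required. They entered the counts and medians of both knockout comparisons through the genotype where they were high, and so add no independent support to them.

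**Figure D2:**
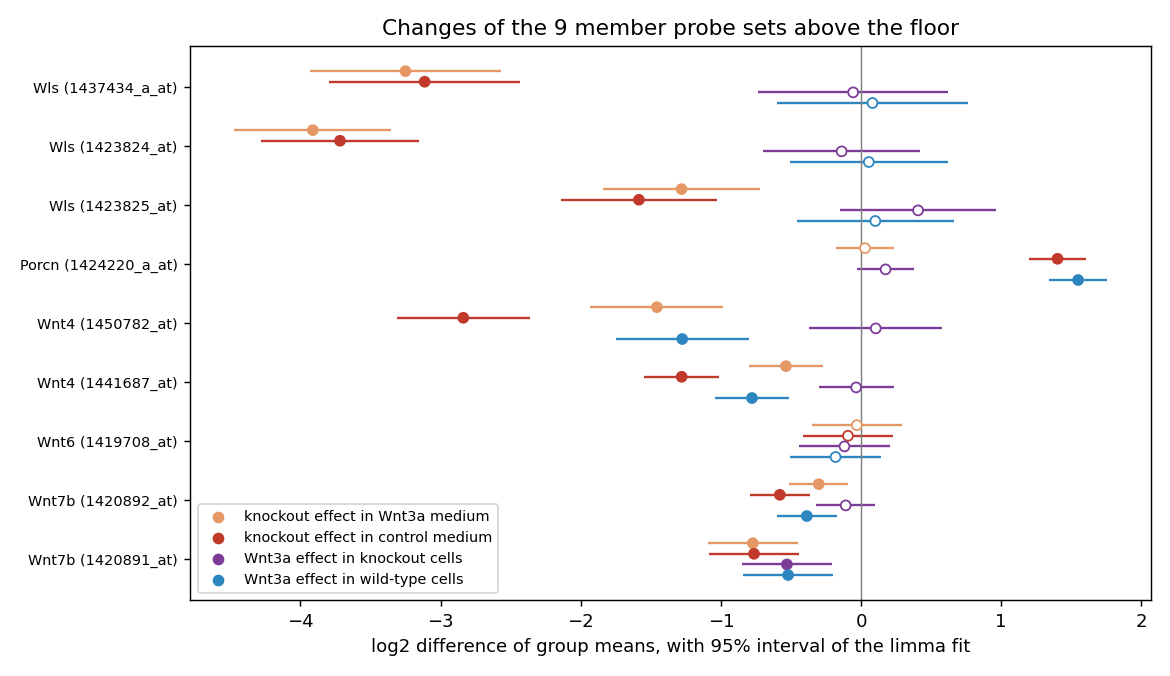
Log2 difference of group means for the 9 member probe sets above the floor in 4 comparisons, with the 95% interval of the limma fit; filled points passed an adjusted p of 0.05 and open points did not. The 3 Wls probe sets lie left of 0 in both knockout effects, and their intervals include 0 in both Wnt3a effects, while Porcn lies right of 0 in control medium for the knockout and in wild-type cells for Wnt3a.

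Wls, the carrier that every acylated Wnt ligand is known to need for its exit, was at or near background in knockout cells and clearly expressed in wild-type cells, in both media. Probe set 1423824_at read 5.08, 4.63 and 4.48 in knockout and 8.67, 8.55 and 8.71 in wild-type cells with Wnt3a, and 4.92, 4.87 and 4.83 in knockout and 9.33, 7.98 and 8.45 in wild-type cells in control medium. All 6 knockout arrays lay under the floor and all 6 wild-type arrays lay more than 2 log2 units above it. The gene was at least 8.48-fold lower in knockout cells with Wnt3a (log2 difference -3.91 ± 0.26 SE, adjusted p = 1.80e-06) and at least 8.16-fold lower in control medium (-3.72 ± 0.26, adjusted p = 7.77e-07). Probe set 1437434_a_at averaged 5.34 ± 0.49 in knockout and 8.59 ± 0.15 in wild-type cells with Wnt3a, and 5.40 ± 0.25 in knockout and 8.51 ± 0.73 in wild-type cells in control medium. Its bounds were at least 8.19-fold and at least 7.74-fold lower. The dimmer probe set 1423825_at averaged 4.89 ± 0.12 in knockout and 6.17 ± 0.11 in wild-type cells with Wnt3a, and 4.48 ± 0.20 in knockout and 6.07 ± 0.71 in wild-type cells in control medium, and was also called lower in both media (adjusted p = 0.00366 and 0.000414). The last probe set, 1458319_at, lay between 3.74 and 4.27 on all arrays and so gave no reading of the gene. Without wild-type control array 1 the difference in control medium was -3.35 for 1423824_at, -2.71 for 1437434_a_at and -1.20 for 1423825_at, and was called for each. The sums of trophectoderm markers, mostly Krt8 and Krt18 in wild-type cells, and of neural markers, with Nes the brightest, were likewise lower in knockout cells in both media. Eomes of the trophectoderm list and Sox1 of the neural list were instead higher in knockout cells. The part of these sums in the Wls difference was not tested.

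With all arrays in the fit, no Wls probe set had a called difference between Wnt3a and control medium in either genotype. In wild-type cells the difference between Wnt3a and control medium was 0.06 for 1423824_at (95% interval -0.51 to 0.62) and 0.08 for 1437434_a_at (-0.60 to 0.76), so changes within these intervals were not detectable. The wild-type control arrays ranged from 7.98 to 9.33 for 1423824_at. Without wild-type control array 1 the difference in wild-type cells was 0.43 for 1423824_at (adjusted p = 0.068), 0.48 for 1437434_a_at (0.147) and 0.49 for 1423825_at (0.0217), so all 3 values were larger without this array, and the last was then called. In knockout cells 1423825_at differed by 0.41 between media (95% interval -0.15 to 0.96), with both group means under the floor. That difference was called without wild-type control array 1 (adjusted p = 0.0343) and with only the arrays compared (0.031).

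Porcn, the enzyme that acylates Wnt ligands, was low in a single group, wild-type cells in control medium. Its probe set, 1424220_a_at, read 9.97, 9.84 and 9.69 in knockout and 9.74, 9.75 and 9.94 in wild-type cells with Wnt3a, and 9.76, 9.61 and 9.62 in knockout and 8.37, 8.12 and 8.29 in wild-type cells in control medium. The 3 wild-type arrays in control medium lay more than 1 log2 unit below all 9 others, and the other groups overlapped. Porcn was 2.64-fold higher in knockout than in wild-type cells in control medium (log2 difference 1.40 ± 0.09 SE, adjusted p = 6.25e-07). It was 2.93-fold higher with Wnt3a than in control medium in wild-type cells (1.55 ± 0.09, adjusted p = 3.65e-07). These 2 differences share the wild-type control arrays. In knockout cells Wnt3a and control medium differed by 0.17 (95% interval -0.03 to 0.38, adjusted p = 0.181), and knockout and wild-type cells with Wnt3a differed by 0.03 (-0.18 to 0.23, adjusted p = 0.866). The interaction was -1.37 ± 0.13 (adjusted p = 0.00115) and was called under every alternative run, with adjusted p between 0.000118 and 0.00675. Without wild-type control array 1, which for Porcn was the highest of its group, the interaction was -1.43. The sum of pluripotent stem cell markers was likewise lowest in wild-type cells in control medium, though Utf1 and Fgf4 of that list were not. The part of this sum in the Porcn differences was not tested.

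**Figure D3:**
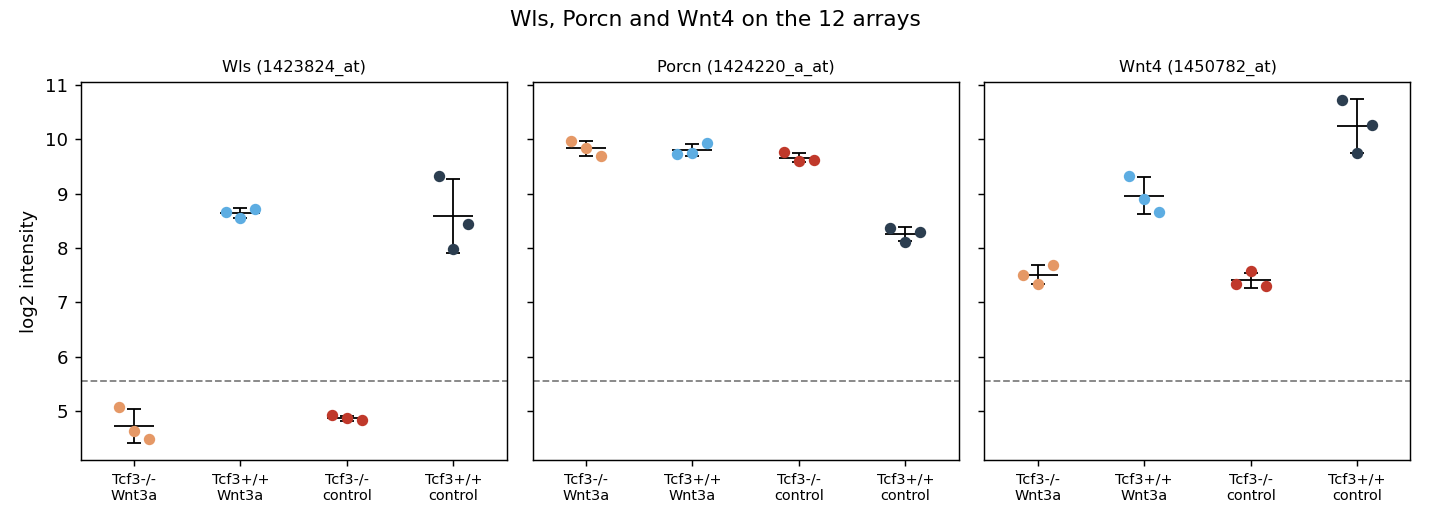
Log2 intensity of Wls, Porcn and Wnt4 on the 12 arrays by group; points are single arrays in the order of their replicate numbers, the black bar and whiskers give the mean and SD, and the dashed line is the floor. Wls lies under the floor in both knockout groups, Porcn is low only in wild-type cells in control medium, and Wnt4 is highest there, intermediate in wild-type cells with Wnt3a and lowest in both knockout groups.

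Wnt4, a ligand known best for its roles in kidney and ovary formation, was lower in knockout than in wild-type cells in both media, and lower with Wnt3a than in control medium in wild-type cells. Probe set 1450782_at read 7.50, 7.34 and 7.68 in knockout and 9.33, 8.91 and 8.67 in wild-type cells with Wnt3a, and 7.33, 7.57 and 7.31 in knockout and 10.73, 9.74 and 10.26 in wild-type cells in control medium. The wild-type groups overlapped neither with each other nor with the knockout groups, and the 2 knockout groups overlapped. With Wnt3a, Wnt4 was 2.75-fold lower in knockout than in wild-type cells (log2 difference -1.46 ± 0.22 SE, adjusted p = 0.00058), and in control medium it was 7.15-fold lower (-2.84 ± 0.22, adjusted p = 1.555e-06). In wild-type cells it was 2.42-fold lower with Wnt3a than in control medium (-1.28 ± 0.22, adjusted p = 0.000683), whereas in knockout cells the media differed by 0.10 (95% interval -0.37 to 0.58). The second probe set, 1441687_at, averaged 6.23 ± 0.02 in knockout and 6.77 ± 0.20 in wild-type cells with Wnt3a, and 6.27 ± 0.09 in knockout and 7.55 ± 0.25 in wild-type cells in control medium. It had the same 3 called differences, -0.54, -1.28 and -0.78, each smaller than that of the first. Without wild-type control array 1 the difference in control medium was -2.60 and that between media in wild-type cells -1.03 for 1450782_at, and both were called.

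The interaction of Wnt4 passed narrowly, at 1.38 ± 0.31 for 1450782_at (adjusted p = 0.0336) and 0.74 ± 0.17 for 1441687_at (adjusted p = 0.0395). For the first probe set the call was lost when wild-type control array 1 or 3, knockout control array 1 or 3, wild-type Wnt3a array 2 or 3, or knockout Wnt3a array 2 or 3 was left out, with adjusted p between 0.0581 and 0.0841. The second lost its call without the same 8 arrays, and also without knockout control array 2 (0.056) or knockout Wnt3a array 1 (0.0549), with a highest adjusted p of 0.0968. In the fits that lost the call the value was 1.14 to 1.46 for the first and 0.62 to 0.78 for the second.

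Wnt7b, a ligand known for roles in lung and placenta development, was lower in knockout cells by less. Probe set 1420892_at, which lay above both background levels on every array, read 8.57, 8.63 and 8.54 in knockout and 8.84, 9.01 and 8.80 in wild-type cells with Wnt3a, and 8.85, 8.69 and 8.53 in knockout and 9.43, 9.14 and 9.23 in wild-type cells in control medium. Each knockout array lay below every wild-type array of its medium, by small margins. The difference was -0.58 ± 0.10 SE in control medium (1.49-fold lower, adjusted p = 0.000544) and -0.30 ± 0.10 with Wnt3a (1.23-fold lower, adjusted p = 0.0412). The call with Wnt3a was lost when any of 7 arrays was left out: wild-type control array 3 (adjusted p = 0.0583), knockout control array 2 (0.0531), array 1 (0.0688) or 2 (0.147) of wild-type cells with Wnt3a, and each array of knockout cells with Wnt3a (0.0845, 0.0706 and 0.1015 without arrays 1, 2 and 3). It was also lost without the filter (0.0544) and after repeated quantile normalization (0.0951).

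The second Wnt7b probe set, 1420891_at, averaged 6.01 ± 0.26 in knockout and 6.78 ± 0.23 in wild-type cells with Wnt3a, and 6.54 ± 0.04 in knockout and 7.30 ± 0.22 in wild-type cells in control medium. Its mean in knockout cells with Wnt3a was above the floor but under the olfactory receptor level of 6.31. The knockout difference was -0.77 ± 0.15 with Wnt3a and -0.76 ± 0.15 in control medium (adjusted p = 0.00271 and 0.0014), and the interaction was -0.01. Both genotypes had lower values with Wnt3a than in control medium, with differences of -0.53 in knockout cells (adjusted p = 0.0176) and -0.52 in wild-type cells (0.0136). The first of these calls was lost without knockout control array 3 (0.0596) or knockout Wnt3a array 1 (0.0595), and the second without wild-type control array 1 (0.0608) or wild-type Wnt3a array 2 (0.0544). For 1420892_at the media differed by -0.11 in knockout cells (adjusted p = 0.426) and -0.39 in wild-type cells (adjusted p = 0.00729), so the 2 probe sets gave different calls in knockout cells.

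**Figure D4:**
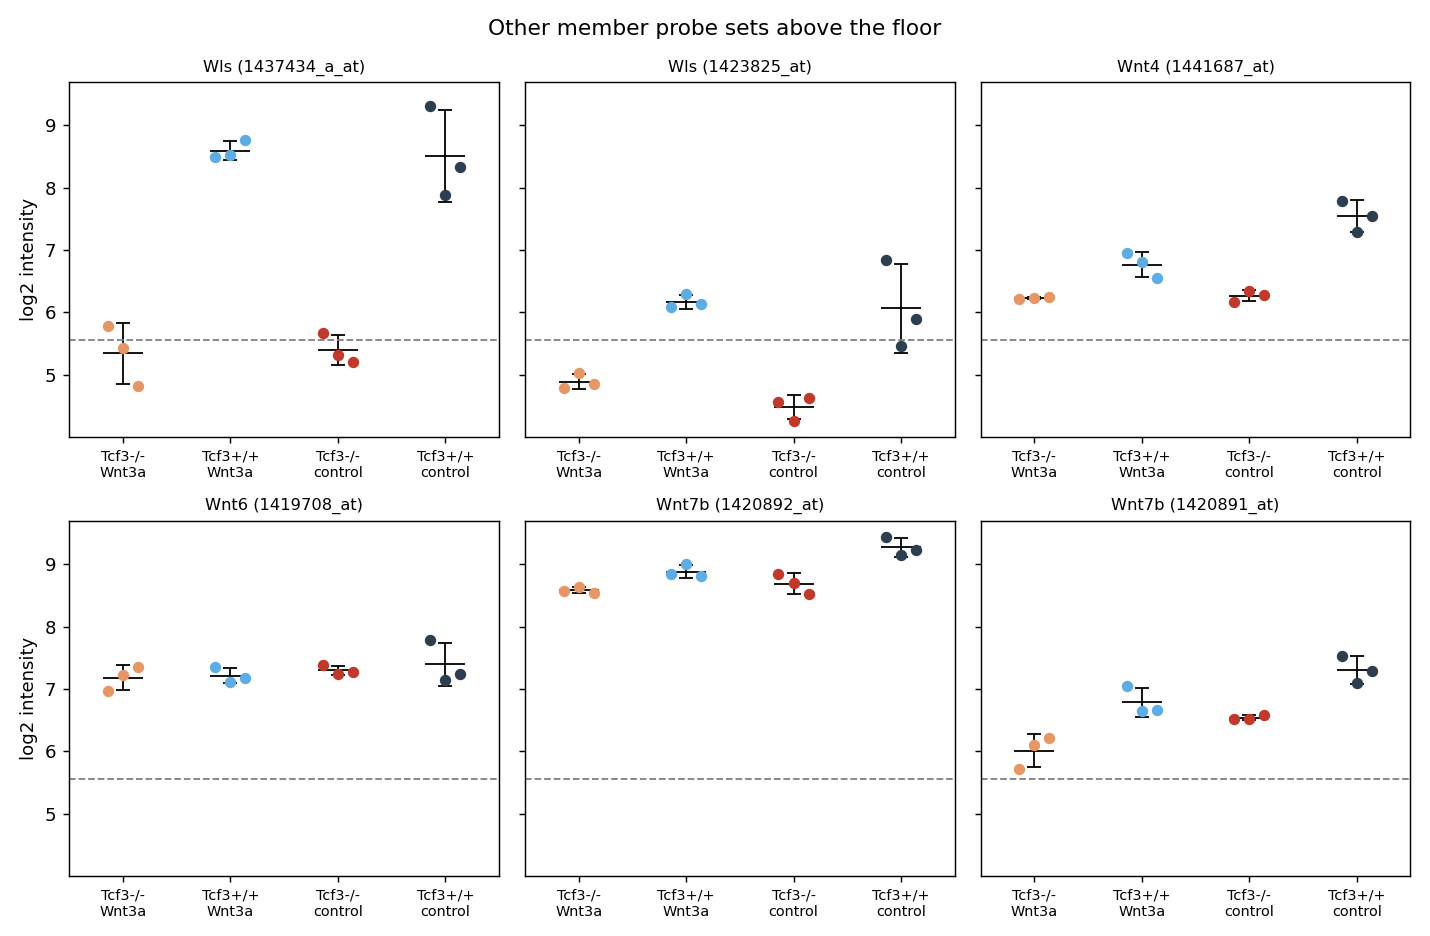
Log2 intensity of the 6 remaining member probe sets that passed the filter, by group; points are single arrays, bars and whiskers give the mean and SD, and the dashed line is the floor. The other Wls probe sets are low in both knockout groups, the second Wnt4 and both Wnt7b probe sets are lower in knockout than in wild-type cells, and the 4 groups of Wnt6 overlap.

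Wnt6, Wnt3 and Wnt5a gave no called difference above the floor. For Wnt6, a ligand known from epithelial tissues, probe set 1419708_at read 6.97, 7.22 and 7.35 in knockout and 7.35, 7.11 and 7.17 in wild-type cells with Wnt3a, and 7.38, 7.24 and 7.28 in knockout and 7.78, 7.15 and 7.24 in wild-type cells in control medium. All groups overlapped, and wild-type control array 1 was the highest array. The knockout difference was -0.03 with Wnt3a (95% interval -0.35 to 0.29) and -0.09 in control medium (-0.42 to 0.23), so changes within these intervals were not detectable. Its second probe set, 1435980_x_at, lay between 4.80 and 5.23, under the floor. In the limma fit without a filter it was called in 1 comparison, Wnt3a against control medium in wild-type cells (higher with Wnt3a, log2 difference 0.24, adjusted p = 0.0377).

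The single Wnt3 probe set, for a ligand that mouse gastrulation is known to need, was under the floor on all 12 arrays and yet ordered by group. It read 3.79, 3.80 and 3.77 in knockout and 4.26, 4.35 and 4.01 in wild-type cells with Wnt3a, and 4.12, 4.13 and 4.08 in knockout and 4.97, 4.50 and 4.82 in wild-type cells in control medium. Knockout arrays lay below wild-type arrays within each medium, without overlap. In the fit without a filter, over 45037 probe sets, the knockout difference was -0.42 with Wnt3a (adjusted p = 0.0228) and -0.66 in control medium (adjusted p = 0.000601), and that between media was -0.32 in knockout cells (0.0542) and -0.56 in wild-type cells (0.00199). No fold is given, since both sides lay under the floor. The suffix x in its name marks a probe set whose probes can bind other transcripts. The 4 probe sets of Wnt5a, a ligand that mostly signals without beta-catenin, lay between 4.15 and 4.81 on every array, between the 9.62nd and 24.7th percentile of each array. The limma fit without a filter called none of them in any comparison. Before adjustment, 1 value passed 0.05, that of 1436791_at between knockout and wild-type cells in control medium (log2 difference -0.25, adjusted p = 0.0709).

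The genes whose profile over the 12 arrays was most like that of a member were taken by Pearson's r of log2 intensity, with the brightest probe set of each gene, as a description without a test. Only probe sets that passed the filter were ranked, and RIKEN, predicted and unnamed genes were passed over. The arrays fall into 4 groups, whose means enter each r. For Wls they were Pmp22, which encodes a myelin and junction protein (r = 0.991), Igfbp4, a binding protein of insulin-like growth factors (0.988), and the growth factor gene Igf2 (0.986). Pmp22 averaged 6.44 in knockout and 10.05 in wild-type cells with Wnt3a, and 6.28 in knockout and 9.84 in wild-type cells in control medium, the same high and low groups as Wls. For Porcn they were the netrin gene Ntn1 (0.991), the alkaline phosphatase gene Alpl (0.982) and Ticrr, which acts in replication initiation (0.976). Ntn1 averaged 11.02 in knockout and 10.90 in wild-type cells with Wnt3a, and 10.84 in knockout and 8.85 in wild-type cells in control medium, so it was low in the same single group as Porcn. For Wnt4 they were Tnfaip3, an inhibitor of NF-kappaB signalling (0.995), the inositol kinase gene Itpkb (0.995) and Cd47 (0.994), and for Wnt7b the calcium sensor gene Ncs1 (0.975), Ttyh3 (0.967) and St7 (0.964). For Wnt6, whose groups overlapped, r was lower, 0.883 for Pacsin3, 0.859 for Plekhg3 and 0.838 for Ddah2.

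The other 14 Wnt ligand genes had 21 probe sets, of which 11, of 9 genes, passed the filter. Of these 11, 2 were higher and 2 lower in knockout cells with Wnt3a, and 2 were higher and 3 lower in control medium, where 24% and 36.2% of all probe sets were called. Between media, 3 were higher and 2 lower with Wnt3a in knockout cells, and 2 were higher and 4 lower in wild-type cells, where 30.9% and 42.5% of all were called. No difference from that background is read from these counts. Wnt7a (1423367_at) read 5.89, 5.64 and 5.55 in knockout and 6.72, 6.38 and 6.44 in wild-type cells with Wnt3a, and 5.80, 6.35 and 5.82 in knockout and 7.49, 6.99 and 7.26 in wild-type cells in control medium. It was 1.77-fold lower in knockout cells with Wnt3a (adjusted p = 0.00387) and 2.39-fold lower in control medium (adjusted p = 9.08e-05). Both of its knockout means lay above the floor but under the olfactory receptor level of 6.31. The second and brighter Wnt7a probe set, 1447647_at, lay between 7.836 and 8.395 on every array and was not called in any comparison. Wnt9a (1436978_at) read 5.99, 5.64 and 6.25 in knockout and 6.54, 6.55 and 6.22 in wild-type cells with Wnt3a, and 5.33, 5.46 and 5.29 in knockout and 7.46, 6.75 and 6.82 in wild-type cells in control medium. In control medium, knockout cells had at least 2.73-fold less Wnt9a signal than wild-type cells (adjusted p = 2.58e-05), whereas with Wnt3a the genotypes overlapped, and their difference was called without wild-type control array 1 (0.0279) or knockout Wnt3a array 3 (0.0419) but not with all arrays. Wnt5b (1439373_x_at) averaged 5.86 in knockout and 5.28 in wild-type cells with Wnt3a, and 5.11 in knockout and 4.73 in wild-type cells in control medium, so 3 of its 4 group means lay under the floor. With Wnt3a this probe set was at least 1.23-fold higher in knockout cells (adjusted p = 0.000163), and for control medium no fold or direction is read from it, since both means were under the floor. It passed the filter only through the 3 knockout arrays with Wnt3a, the group where it was high, so its call there adds no independent support. The brighter Wnt5b probe set, 1422602_a_at, was 1.42-fold higher in knockout cells with Wnt3a (adjusted p = 0.00322). In control medium it was at least 1.21-fold higher (adjusted p = 0.0193). That call was lost without wild-type control array 2 (0.0637) or 3 (0.0519) or knockout control array 3 (0.0794). These 2 Wnt5b probe sets were the 2 counted as higher in knockout cells in each medium. Both counts therefore rest on 1 gene and include the probe set that passed only through its high group.

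Genes of Wnt trafficking include those of the retromer and of the p24 cargo receptors. Of 45 probe sets of 21 genes that passed the filter, 3 were higher and none lower in knockout cells with Wnt3a (median difference -0.01), and 8 were higher and 7 lower in control medium (median -0.02). The median over all probe sets was 0.00 with Wnt3a and 0.03 in control medium. Of all probe sets tested, 24% were called with Wnt3a (10.8% higher and 13.2% lower) and 36.2% in control medium (18% higher and 18.2% lower). Arf6, Mtmr6 and Vps29 had 4 of the 45 probe sets each, so these counts are not of independent genes either. The retromer subunit gene Vps35 (1415784_at) averaged 10.90 in knockout and 10.79 in wild-type cells with Wnt3a, and 10.09 in knockout and 9.53 in wild-type cells in control medium. It was higher by 0.56 in knockout than in wild-type cells in control medium (adjusted p = 0.000439), and with Wnt3a it was higher by 0.81 in knockout and 1.26 in wild-type cells, between arrays that also differed in the spiked transcripts. Its second probe set, 1415783_at, differed between media by 0.06 in knockout cells (adjusted p = 0.529) and 0.20 in wild-type cells (adjusted p = 0.0234). That call in wild-type cells was lost without wild-type control array 3 (0.1075), wild-type Wnt3a array 2 (0.0506) or 3 (0.0739), after repeated quantile normalization (0.288) and with only the arrays compared (0.0506). It differed by 0.23 between genotypes in control medium (adjusted p = 0.0115), a call that was lost when array 3 of the wild-type control group was left out (0.0632).

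Wnt receptor genes were represented by 31 probe sets of 19 genes. Fzd3 had 4, Fzd2 and Ryk had 3 each, and Fzd4, Fzd5, Fzd7, Lrp6 and Znrf3 had 2 each, so the counts are not of independent genes. The counts and folds that follow compare knockout with wild-type cells in each medium. Of the 31, 3 were higher and 12 lower in knockout cells with Wnt3a (median difference -0.22), and 2 were higher and 15 lower in control medium (median -0.31), where 10.8% and 18% of all probe sets were higher and 13.2% and 18.2% lower. The balance between higher and lower was not tested. The frizzled receptor gene Fzd2 (1418532_at) was 3.41-fold lower in knockout cells with Wnt3a and 5.04-fold lower in control medium (adjusted p = 0.000627 and 3.10e-05), and Fzd5 (1422937_at) was 1.78-fold and 2.46-fold higher (0.00105 and 1.61e-05). Carriers and modifiers of extracellular Wnt had 1 higher and 7 lower of 24 probe sets in knockout cells with Wnt3a, and 2 higher and 11 lower in control medium, with medians of -0.17 and -0.27, against the same background. Among them the heparan sulfatase gene Sulf1 (1436319_at) was 1.79-fold and 2.09-fold lower (adjusted p = 0.00144 and 0.000112). Notum (1451857_a_at), which removes the fatty acid from secreted Wnt ligands, read 7.85, 7.93 and 7.72 in knockout and 8.20, 8.31 and 8.71 in wild-type cells with Wnt3a, and 8.55, 8.25 and 8.73 in knockout and 7.73, 8.29 and 8.04 in wild-type cells in control medium. With Wnt3a its knockout arrays lay below all wild-type arrays (log2 difference -0.58, adjusted p = 0.0243), a call lost without wild-type Wnt3a array 3 (0.0841) or knockout Wnt3a array 3 (0.0734). In control medium the arrays overlapped and the difference was 0.49 (adjusted p = 0.0352), a call lost without array 1 or 3 of either group (0.0759 to 0.1517). Extracellular inhibitors had 1 higher and 1 lower of 13 in knockout cells with Wnt3a, and 6 higher and 1 lower in control medium, against 10.8% higher and 13.2% lower with Wnt3a and 18% higher and 18.2% lower in control medium over all probe sets. Of these 13 probe sets, 5 belonged to Sfrp1 and 2 each to Sfrp5 and Dkk3. The probe set lower in both media was that of Sfrp2 (1448201_at), which binds Wnt ligands outside the cell, at 2.30-fold and 2.61-fold lower. Other inhibitor genes went the other way. With Wnt3a, Sfrp4 (1451031_at) read 7.86 to 8.04 in knockout and 7.26 to 7.52 in wild-type cells. In control medium it read 7.62 to 7.77 in knockout and at most 7.27 in wild-type cells. Sfrp1 (1416594_at) read 8.23 to 8.42 in knockout and 7.43 to 7.69 in wild-type cells in control medium, and overlapped with Wnt3a.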

How the data were processed

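Deposited by the authors was 1 table of processed intensity values for 45101 probe sets on 12 arrays. The submitters' processing notes name RMA without a version or settings. Array medians of 68.4 to 73.4 show a linear scale, so log2 of the deposited values was taken, with no pseudocount. The platform annotation gave 34945 probe sets 1 symbol and 932 several, 9160 were not listed, and 64 were array controls. The main model was a linear fit of group means over all 12 arrays in limma 3.58.1 (R 4.3.3; lmFit, then eBayes), two-sided, with no replicate block and with Benjamini-Hochberg adjustment over 28483 probe sets. The code was tested on simulated data. With 3 arrays a group, their number limits the precision. All member probe sets are named. From each other list, the 2 largest called rises and falls per comparison whose arrays do not overlap could be named, and some of these are printed. The members and lists were chosen with earlier results of these data known. Alternatives were the filter, the normalization, 1 value per gene, the variance prior, the arrays fitted, a replicate block and leaving out each array.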

Additional observations from a re-analysis of the deposited data

Results flagged for a closer look

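For 8 probe sets of the members and the other lists the Wnt3a effect differed between knockout and wild-type cells by the test of the interaction (limma, adjusted over 28483 probe sets, of which 3.58% were called). These were 3 of 9 for the members, 1 of 11 for the other ligands, 1 of 13 for inhibitors and 1 of 31 for receptors. Carriers and modifiers had 1 positive and 1 negative of 24, and none of 45 trafficking probe sets was called. No difference from the background share is read from the calls outside the members. For Porcn the interaction was -1.37 on the log2 scale: Wnt3a and control medium differed by 0.17 in knockout cells and 1.55 in wild-type cells. For Wnt4 it was 1.38 (1450782_at) and 0.74 (1441687_at), with media differences of 0.10 and -0.04 in knockout cells and -1.28 and -0.78 in wild-type cells. For Wnt9a (1436978_at) it was 1.17 (adjusted p = 0.0336), with differences of 0.60 in knockout cells and -0.57 in wild-type cells. The Wnt9a interaction lost its call without any of 9 arrays, all but wild-type control array 2, wild-type Wnt3a array 1 and knockout Wnt3a array 2, with adjusted p between 0.0523 and 0.0795 and values of 0.95 to 1.26. Among extracellular carriers and modifiers the interaction was -1.07 for Notum (1451857_a_at, adjusted p = 0.0317), with media differences of -0.68 in knockout cells and 0.39 in wild-type cells, and 0.47 for Sdc1 (1415944_at, adjusted p = 0.0284), with 0.04 and -0.43. It was -0.998 for the inhibitor gene Sfrp1 (1460187_at, adjusted p = 0.0404), with -1.38 and -0.38, and 0.63 for the receptor gene Fzd1 (1437284_at, adjusted p = 0.0402), with -0.06 and -0.69. Each of these 4 calls was lost in 8 to 10 of the 12 fits that left out 1 array, with adjusted p up to 0.0786 for Notum, 0.0726 for Sdc1, 0.1043 for Sfrp1 and 0.1061 for Fzd1, and with a replicate block for Sfrp1 (0.0556) and Fzd1 (0.0511). The mean of this Sfrp1 probe set was under the floor in both genotypes with Wnt3a. Sfrp1 had 5 and Sdc1 had 4 probe sets tested, and with all arrays in the fit their others had no called interaction. Wnt3a arrays differed from control-medium arrays in the spiked transcripts in both genotypes (dap by 7.11), and the part of sample preparation in these values was not tested.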

How the results depend on the processing

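Replicate numbers did not mark pairs: over 18 same-numbered pairs of arrays the correlation of deviations from the group means ran from -0.25 to 0.24, and 3 exceeded 0.1. In the order knockout in control medium, knockout with Wnt3a, Wnt3a on knockout, Wnt3a on wild type and interaction, a replicate block called 9870, 6325, 8227, 11638 and 732 probe sets. Without the block these were 10308, 6833, 8795, 12116 and 1021. The block ended 1 member call, the interaction of Wnt4 1441687_at (adjusted p = 0.0568). With the brightest probe set per gene (13814 genes) the counts in the same order were 5829, 3866, 3874, 5736 and 565, and with the mean of all probe sets of a gene (12983 genes) 5585, 3648, 3668, 5336 and 554, with fewer features tested. Of 5 member genes, 4, 3, 0, 3 and 2 were called with the brightest probe set, and 4, 3, 1, 3 and 2 with the mean. With only the arrays compared, 2 member probe sets were called for Wnt3a in knockout cells, the second being Wls 1423825_at (adjusted p = 0.031). Leaving out single arrays gave 8301 to 10559, 4882 to 6941, 5882 to 9154, 9386 to 12550 and 242 to 1663 calls, and 8 to 8, 6 to 7, 0 to 2, 4 to 5 and 1 to 3 member calls, with fewer arrays in the fit. The single interaction call that remained without the 8 arrays that end both Wnt4 calls was that of Porcn. With median centring 64.4% of Wnt3a calls in knockout and 63.5% in wild-type cells were higher, against 48.1% and 49% without it, with 1 and 5 member calls either way. Of 891 values of single member probe sets under alternatives, 855 kept their side of the threshold, 32 lost a call and 4 gained one, and no called value changed sign, while 36 that were not called did. Of the 15 genes named as most like a member, 2 were also among the closest 3 by Spearman's rho and 6 within genotypes.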
